A study of Mus musculus with 6 samples.

Results

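Nuclear genes for respiratory complexes II to V were read from skeletal muscle RNA of FLExDUX4 mice and their wild-type littermates. The gene set holds every mouse gene whose symbol is Sdha, Sdhb, Sdhc, Sdhd, Cyc1 or Cycs, or starts with Uqcr, Cox4 to Cox8 followed by a letter, or Atp5, with named pseudogenes left out. This gave 49 of the 52550 mouse genes in the deposited table, by a rule on gene names and descriptions, written with earlier results of these data known. FLExDUX4 mice are a model of facioscapulohumeral muscular dystrophy (FSHD). The mice were hemizygous for a human DUX4 transgene placed at Rosa26 in reverse between lox sites, and they carried no Cre. The study describes leaky DUX4 expression at a very low level, and no overt pathology of muscle while the mice were young. The labels give male mice of 13 weeks, quadriceps muscle and 3 mice per genotype, whereas the methods of the study give triceps muscle of younger mice. The value of the transgene was not analysed here, so the genotype labels were not checked against it.

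Complexes II, III and IV pass electrons from succinate and ubiquinol through cytochrome c to oxygen in the inner mitochondrial membrane, and complexes III and IV pump protons as they do so. Complex V, the ATP synthase, lets the protons flow back and makes ATP. The catalytic subunits of complex IV and some membrane subunits of complexes III and V are encoded by mitochondrial DNA. Nearly all the genes described here encode other subunits from the nucleus, and a few nuclear subunits fall outside the name rule. Striated muscle uses its own isoforms of several complex IV subunits.

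Libraries were made with QuantSeq, which reads the 3′ end of polyadenylated RNA so that a transcript gives about 1 read whatever its length. Levels in CPM (counts scaled to a common library size) were therefore compared between genes without a length correction, but a gene whose 3′ end is poorly captured or shared with copies elsewhere may be read too low. The values used were the raw counts summed by the authors over the 3 mice of a genotype, 13110125 counts on genes in FLExDUX4 and 18367364 in wild-type mice. Each log2 ratio is FLExDUX4 over wild-type after scaling the totals with the trimmed mean of M values (TMM). Its 95% interval covers counting error only. With 1 total per genotype there was no replicate check and no test, so a single mouse may decide a ratio. A gene is said to be higher or lower by the rule when its log2 ratio was at least 0.32 in size, which for a higher gene is a level raised by at least 25%. Skeletal muscle markers were abundant, with Acta1 at 35944 CPM and Ckm at 12196 CPM in FLExDUX4, while of 4 brown fat markers Ucp1 and Elovl3 had 0 counts, Cidea had 3 and 15 and Dio2 had 28 and 39 counts in FLExDUX4 and wild-type mice, and heart markers Myh6, Tnni3, Nppa and Nppb had from 0 to 19 counts in a genotype.

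The transcripts of complexes II to V were nearly alike in FLExDUX4 and wild-type muscle when scaled to the other genes. Together they took 2.10% of all gene counts in FLExDUX4 (275664 counts) and 2.17% in wild-type mice (397720 counts). This was 21246 and 21430 CPM after scaling, a log2 ratio of -0.012 (interval -0.019 to -0.005). Of the 49 genes, 46 passed the filter on low counts. Their log2 ratios ranged from -0.24 to 0.58 with a median of 0.010. Of these, 27 were above 0 and 19 below, against 49.9% above 0 among the 13396 genes compared.

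By the rule, 1 of the 46 genes was higher in FLExDUX4, Atp5s, and 0 were lower. Among all genes compared the shares were 22.6% higher and 22.8% lower, but most of those genes had few counts. Among the 2727 genes with at least 1000 counts over both genotypes, 4.84% were higher and 4.47% lower, and 0 of the 41 respiratory genes at that depth were either. Of those 41 genes 24 were above 0, against 50.2% of all genes at that depth, and they ranged from -0.23 (Atp5h) to 0.30 (Cox6a1), the latter a 1.23-fold difference.

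**Figure D1:**
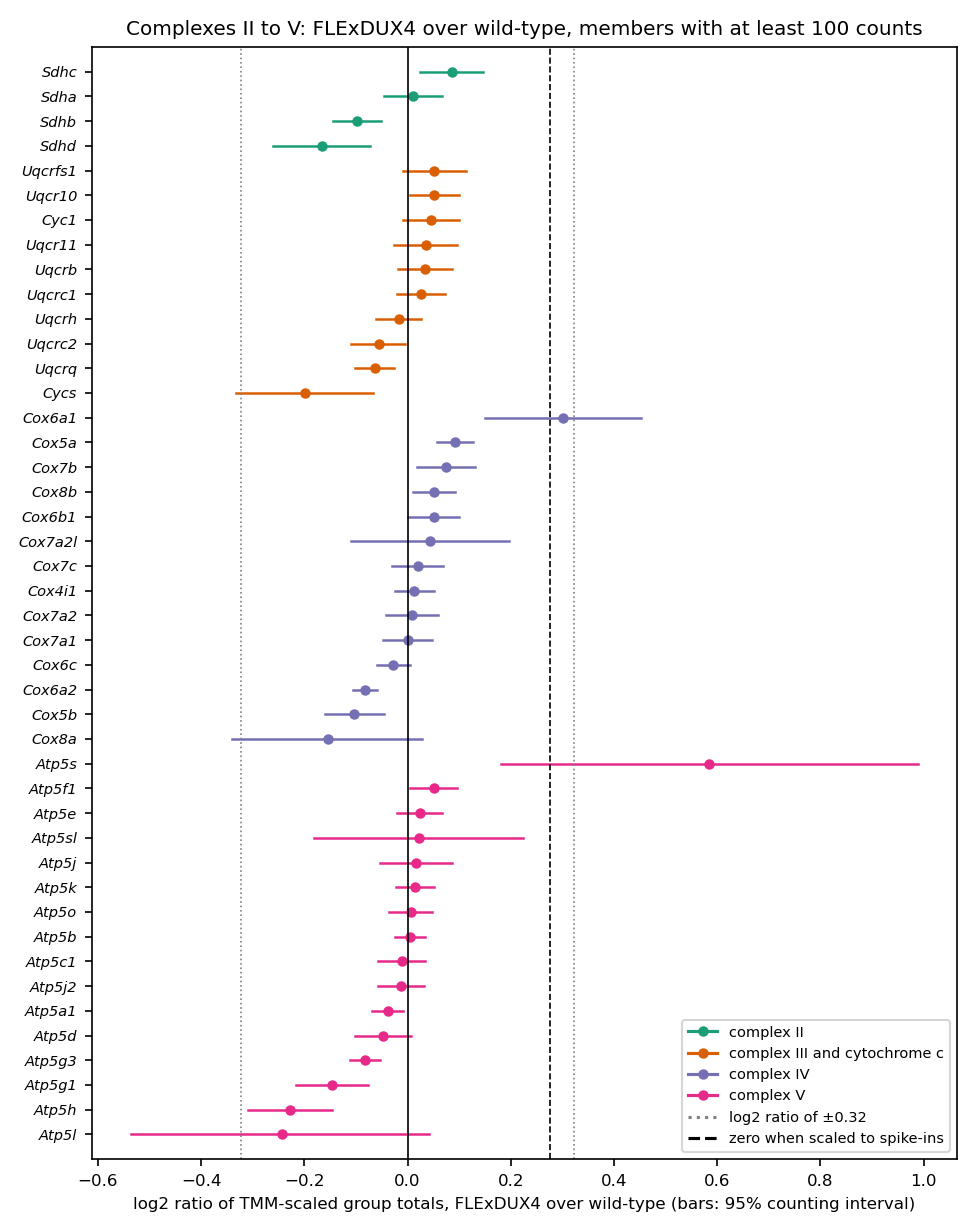
Log2 ratio of FLExDUX4 over wild-type for each gene of complexes II to V with at least 100 counts, sorted within each complex, with bars for the 95% counting interval; dotted lines mark log2 ratios of 0.32 in size and the dashed line is where zero would lie if the totals were scaled to the spike-in RNAs. Most points lie within 0.1 of zero, Atp5s alone lies past the upper dotted line, and all but Cox6a1 and Atp5s lie left of the dashed line.

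Scaling decides where zero lies, and the sign of a median this close to zero turns with it, to -0.006 with upper quartile scaling and -0.020 with gene totals. Spike-in RNAs, added to each sample in the laboratory, took 220016 counts in FLExDUX4 and 259913 in wild-type mice. Scaled to them, every log2 ratio is lower by 0.28, and so is the median of all genes compared, at -0.28. On that scale the respiratory genes had a median of -0.27, 44 of 46 were below 0, against 74.8% of all genes compared, and 14 were lower and 0 higher by the rule, against 45.0% and 12.9%. Of the 41 with at least 1000 counts, 40 were below 0, near the share of all genes at that depth (2531 of 2727). By the rule 12 of the 41 were lower, against 38.6% of all genes at that depth. Relative to the median of all genes they stayed where they were. In bulk muscle, fewer cells of a type and less RNA per cell cannot be told apart, and neither was tested here. The amounts of RNA and of spike-in that entered each library were not analysed, so the source of the shared shift is not known.

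Complex II couples the citric acid cycle to the respiratory chain and is built from nuclear genes alone. Its 4 genes took 1229.7 CPM in FLExDUX4 and 1258.8 CPM in wild-type mice, with a median log2 ratio of -0.04. Sdha, the flavoprotein that oxidizes succinate, had 4390 counts in FLExDUX4 and 6231 in wild-type mice, and a ratio of 0.01 (interval -0.04 to 0.07). Sdhb, the iron-sulfur subunit, had 6334 and 9698 counts, a ratio of -0.10 (interval -0.14 to -0.05). The membrane anchor genes lay on opposite sides of zero. Sdhc had 3747 and 5051 counts, a ratio of 0.09 (interval 0.02 to 0.15). Sdhd had 1484 and 2382 counts, a ratio of -0.17 (interval -0.26 to -0.07). Their intervals do not overlap, although the proteins form the anchor together, and neither gene was past 0.32 in size.

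Complex III passes electrons from ubiquinol to cytochrome c. Its genes and that for cytochrome c, 10 in all, summed to 4015.6 CPM in FLExDUX4 and 4015.2 CPM in wild-type mice, and their median log2 ratio was 0.03. The genes of both nuclear redox subunits had almost the same ratio. Uqcrfs1, the Rieske iron-sulfur protein, had 3729 and 5145 counts, a ratio of 0.05 (interval -0.01 to 0.11). Cyc1, cytochrome c1, had 4662 and 6460 counts, a ratio of 0.05 (interval -0.01 to 0.10). The core proteins, which form the matrix part of the complex, differed slightly from each other. Uqcrc1 had 6583 and 9247 counts, a ratio of 0.03 (interval -0.02 to 0.07), and Uqcrc2 had 4921 and 7319 counts, a ratio of -0.06 (interval -0.11 to -0.004).

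The small subunits Uqcrb, Uqcrh, Uqcrq, Uqcr10 and Uqcr11 lay between -0.06 and 0.05. The most abundant, Uqcrq, had 9352 and 13984 counts, or 721 and 753 CPM, a log2 ratio of -0.06 (interval -0.10 to -0.03). Uqcrh, the hinge protein that contacts cytochrome c1, had 7140 and 10334 counts, a ratio of -0.02 (interval -0.06 to 0.03). Cycs, somatic cytochrome c, stood lowest in this group. Its counts were 755 in FLExDUX4 and 1240 in wild-type mice (58.2 and 66.8 CPM), a ratio of -0.20 (interval -0.33 to -0.07). Cycs was thus at a lower level than any gene of complex III, from which its protein takes electrons, and the testis form Cyct had 0 counts in both genotypes.

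Complex IV reduces oxygen, and its nuclear genes encode the small subunits that surround the catalytic core. Of its 18 genes, 15 were compared, with a median log2 ratio of 0.01. All 18 summed to 7856.8 CPM in FLExDUX4 and 7882.0 CPM in wild-type mice. The most abundant gene of the whole set was Cox6a2, the striated muscle form of subunit 6a. It had 25679 and 38878 counts, or 1979 and 2095 CPM, a ratio of -0.08 (interval -0.10 to -0.06). Within complex IV the next was Cox6c, with 13195 and 19236 counts and a ratio of -0.03 (interval -0.06 to 0.005). Cox6a2 thus had more CPM than any other nuclear gene of complexes II to V in either genotype, and its small difference was outside counting error.

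The subunits 5a and 5b, which sit on the matrix side, went in opposite directions. Cox5a had 11647 and 15633 counts, a log2 ratio of 0.09 (interval 0.06 to 0.13). Cox5b had 4127 and 6341 counts, a ratio of -0.10 (interval -0.16 to -0.05). Of the 30 genes of the set with at least 10000 counts, these were the highest and the lowest. Cox4i1, the main form of subunit 4, had 9628 and 13648 counts, a ratio of 0.01 (interval -0.02 to 0.05). Cox7b had 4510 and 6125 counts, a ratio of 0.07 (interval 0.02 to 0.13). Cox7a2l had a ratio of 0.04 (interval -0.11 to 0.20).

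**Figure D2:**
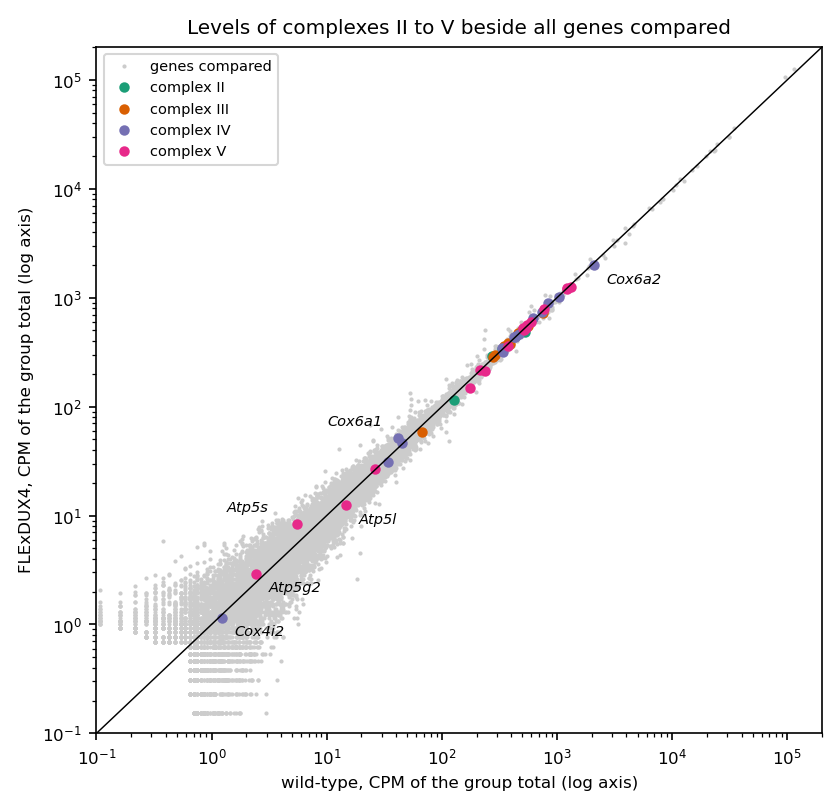
Scaled level (CPM of the group total) of each gene in wild-type (horizontal) and FLExDUX4 muscle (vertical), both log axes, for genes compared that had counts in both genotypes, with the genes of complexes II to V in color and the line of equal level. Cox6a2 lies close to the line at 1979 against 2095 CPM, while Atp5g2 and Cox4i2 lie near 1 to 3 CPM, where all genes scatter widely.

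Isoform pairs allow a comparison that needs no scaling, because the share of a subunit's counts on each form is taken within a genotype. Cox6a2 made up 97.5% of the counts of subunit 6a in FLExDUX4 (Clopper-Pearson interval 97.3 to 97.7) and 98.1% in wild-type mice (97.9 to 98.2). The remainder was Cox6a1, the form used outside striated muscle, with 666 counts in FLExDUX4 and 773 in wild-type mice, 51.3 and 41.7 CPM. Its log2 ratio of 0.30 (interval 0.15 to 0.45) was the highest among the respiratory genes with at least 1000 counts, and was 0.03 on the spike-in scale. The share of Cox6a1 was 2.53% (2.34 to 2.72) against 1.95% (1.82 to 2.09), a log2 odds ratio of 0.38 (interval 0.23 to 0.54).

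Subunit 8 showed a small difference the other way. Cox8b, the muscle form, had 8391 and 11584 counts, a log2 ratio of 0.05 (interval 0.01 to 0.09). Cox8a, the form found in most tissues, had 398 and 634 counts, a ratio of -0.15 (interval -0.34 to 0.03). The share of Cox8b was 95.5% in FLExDUX4 and 94.8% in wild-type mice, a log2 odds ratio of 0.21 (interval 0.02 to 0.40). So the muscle form took slightly less of subunit 6a and slightly more of subunit 8 in FLExDUX4.

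Subunit 7a was the most even of these pairs. Cox7a1, the muscle form, had 6073 and 8686 counts, 468.06 CPM in FLExDUX4 and 468.02 CPM in wild-type mice, which is a log2 ratio of 0.0002 (interval -0.05 to 0.05). Cox7a2, the form of other tissues, had 5594 and 7954 counts, a ratio of 0.01 (interval -0.04 to 0.06). Cox7a1 thus held 52.1% of the subunit in FLExDUX4 and 52.2% in wild-type mice, a log2 odds ratio of -0.01 (interval -0.08 to 0.06). Both forms were at a similar level in this muscle, unlike subunits 6a and 8, where the muscle form took nearly all counts.

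The other forms of complex IV subunits were rare. Cox4i2, known from lung and induced by low oxygen, had 15 and 23 counts, 0.156% and 0.168% of subunit 4, and a log2 ratio of -0.08 (interval -1.14 to 0.90). Cox6b2, a testis form, had 7 counts in FLExDUX4 and 1 in wild-type mice, a ratio of 2.84 with an interval from 0.36 to 8.82, against 5642 and 7792 counts for Cox6b1, whose ratio was 0.05 (interval 0.001 to 0.10). Cox7b2 and Cox8c, also testis forms, had 0 counts in both genotypes, and for Cox7b2 this allows a share of up to 0.0818% of subunit 7b in FLExDUX4 and 0.0602% in wild-type mice (Clopper-Pearson). The counts of Cox6b2 were too few for the gene to be among those compared.

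**Figure D3:**
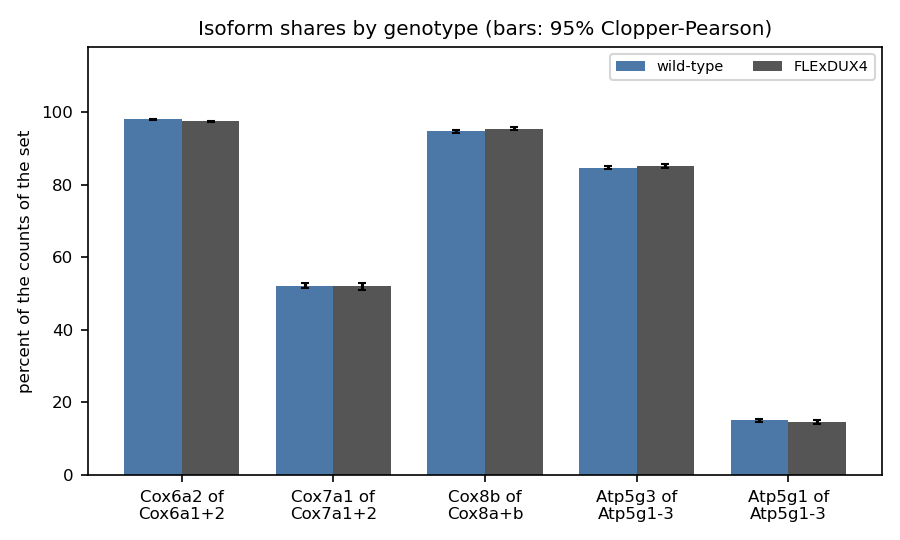
Share of a subunit's counts on the named isoform, in percent, in wild-type and FLExDUX4 muscle, with 95% Clopper-Pearson intervals that cover counting error. Cox6a2 and Cox8b take more than 94% of their subunit, Cox7a1 about 52%, and the bars of a pair differ by less than 1 percentage point.

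The sequence ahead of the gene was compared for the muscle and general forms of subunits 7a and 8, and Cox6a2 was not among the genes matched. RefSeq start sites (GRCm38.p6) were found for 38 of the 49 genes, with 42 windows of 250 bases before a start. The windows of the respiratory genes had a median of 14 CpG, against 6 over all 32851 windows of 27025 genes. Cox7a1 had 4 CpG and Cox7a2 had 14, while Cox8b had 1 and Cox8a had 11. The stretches of these pairs are shown because the muscle form of each had fewer CpG than its partner. A low CpG count was not particular to muscle forms, as Uqcr10 and Cox7b had 5 each. The stretches leave out the bases that GENCODE places inside the gene. Those of Cox6a1 and Atp5h follow, the genes at the ends of the range of ratios among genes with at least 1000 counts. Each is written 5′ to 3′ on the strand of the gene. Capitals mark matches, on either strand, to GCGCNTGCG (nuclear respiratory factor 1, NRF1), CCGGAAG (the ETS family, which includes the GABP factor) or CAGCTG (an E-box, as bound by myogenic factors), and overlapping matches to the first of these form a single run.
Cox7a1, chr7:30183921-30184143, plus strand: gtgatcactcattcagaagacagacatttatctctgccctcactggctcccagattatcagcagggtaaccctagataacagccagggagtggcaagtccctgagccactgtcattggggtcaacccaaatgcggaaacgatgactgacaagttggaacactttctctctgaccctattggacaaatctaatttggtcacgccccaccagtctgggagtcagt
Cox7a2, chr9:79759879-79760103, minus strand: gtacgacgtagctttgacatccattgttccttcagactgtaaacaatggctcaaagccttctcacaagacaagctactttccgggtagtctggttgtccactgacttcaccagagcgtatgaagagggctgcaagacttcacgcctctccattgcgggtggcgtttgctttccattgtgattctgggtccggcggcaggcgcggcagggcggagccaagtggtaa
Cox8b, chr7:140900447-140900696, minus strand: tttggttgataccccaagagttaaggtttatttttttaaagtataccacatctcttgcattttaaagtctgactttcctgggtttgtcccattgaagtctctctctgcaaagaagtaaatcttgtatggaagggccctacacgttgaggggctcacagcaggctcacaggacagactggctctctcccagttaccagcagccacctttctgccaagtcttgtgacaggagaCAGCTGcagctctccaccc
Cox8a, chr19:7217617-7217866, minus strand: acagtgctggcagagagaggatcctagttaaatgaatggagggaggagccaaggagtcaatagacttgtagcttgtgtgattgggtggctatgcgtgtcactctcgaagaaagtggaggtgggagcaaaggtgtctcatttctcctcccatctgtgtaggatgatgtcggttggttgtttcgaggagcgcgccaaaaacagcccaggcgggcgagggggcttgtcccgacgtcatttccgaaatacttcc
Cox6a1, chr5:115348982-115349208, minus strand: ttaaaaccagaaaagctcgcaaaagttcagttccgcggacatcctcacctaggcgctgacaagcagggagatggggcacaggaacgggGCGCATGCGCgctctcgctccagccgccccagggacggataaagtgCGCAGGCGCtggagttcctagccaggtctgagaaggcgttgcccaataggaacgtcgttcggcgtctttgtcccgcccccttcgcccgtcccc
Atp5h, chr11:115419963-115420169, minus strand: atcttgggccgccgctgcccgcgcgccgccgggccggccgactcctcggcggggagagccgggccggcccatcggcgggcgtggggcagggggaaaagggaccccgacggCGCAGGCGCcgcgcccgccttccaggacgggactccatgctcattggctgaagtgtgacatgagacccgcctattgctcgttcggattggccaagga

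In the full windows of 250 bases, the NRF1 letters were in 26.2% of windows of the respiratory genes (11 of 42) and in 5.19% of all windows. The ETS letters were in 21.4% (9 of 42) against 6.91%, and the E-box letters in 4.76% (2 of 42, Cox8b and Atp5b) against 13.0%. Matches to different motifs overlapped in 0 of the 42 windows and in 14 of all windows. Cox6a1 and Atp5h lay at opposite ends of the range of ratios among genes with at least 1000 counts. Both held the NRF1 and the ETS letters in their full windows, as did Sdhd and Atp5l. Cox7a1, Cox7a2 and Cox8a held none of these motifs.

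Complex V has a catalytic head, a rotating ring of c subunits and a peripheral stalk that holds them together. Its 17 genes had a median log2 ratio of 0.004 and summed to 8144.0 CPM in FLExDUX4 and 8274.1 CPM in wild-type mice. The head genes lay close together, and each had at least 10000 counts over both genotypes. Atp5a1, the alpha subunit, had 15452 and 22701 counts, a ratio of -0.04 (interval -0.07 to -0.01). Atp5b, the catalytic beta subunit, had 15822 and 22566 counts, or 1219.4 and 1215.9 CPM, a ratio of 0.004 (interval -0.03 to 0.03). Atp5c1, the gamma subunit of the central stalk, had 6591 and 9502 counts, a ratio of -0.01 (interval -0.06 to 0.03). With Atp5d and Atp5e, these 5 genes ranged from -0.05 to 0.02.

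The c ring is made of a single mature protein encoded by 3 genes that differ in their import sequence. Atp5g3 had 16160 and 24484 counts, or 1245.5 and 1319.3 CPM, a log2 ratio of -0.08 (interval -0.11 to -0.05). Atp5g1 had 2763 and 4374 counts, a ratio of -0.15 (interval -0.22 to -0.08). Atp5g2 had only 38 and 45 counts, a ratio of 0.28 (interval -0.39 to 0.93). Summed over the 3 genes the ratio was -0.09 (interval -0.12 to -0.07), 1461.4 against 1557.4 CPM. The head as a whole was at -0.01 (interval -0.03 to 0.003) and the peripheral stalk at -0.003 (interval -0.03 to 0.02), and neither interval overlaps that of the c ring. The makeup of the ring transcripts hardly differed, with Atp5g3 at 85.2% and 84.7%, Atp5g1 at 14.6% and 15.1%, and Atp5g2 at 0.200% and 0.156% of their counts in FLExDUX4 and wild-type mice.

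In the peripheral stalk 1 of 4 genes stood apart. Atp5h, subunit d (chromosome 11 of GRCm38, 115415689 to 115419962), was counted 1941 times in FLExDUX4 and 3250 times in wild-type mice, 150 and 175 CPM. Its log2 ratio of -0.23 (interval -0.31 to -0.15) was the lowest among the 41 genes with at least 1000 counts. The stalk genes Atp5f1, Atp5j and Atp5o lay between 0.01 and 0.05. Of the membrane subunits, Atp5l, subunit g, had 161 and 273 counts and the lowest ratio of all, -0.24, with an interval from -0.54 to 0.04 that includes zero, and Atp5k and Atp5j2 lay at 0.01 and -0.01. Pseudogenes of Atp5k, Atp5l and Uqcrh were listed with 0 to 10 counts in a genotype, and reads shared with such copies may have been lost in counting.

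Atp5s (chromosome 12 of GRCm38, 69724950 to 69744660), also called factor B, was the gene past the rule and is not a subunit of the mature enzyme. It had 108 counts in FLExDUX4 and 103 in wild-type mice, 8.32 and 5.55 CPM, a log2 ratio of 0.58 (interval 0.18 to 0.99). Scaled to the spike-ins its ratio was 0.31, just short of the limit. Atp5sl, named for its likeness to Atp5s and also no subunit, had 347 and 489 counts and a ratio of 0.02 (interval -0.18 to 0.22). Without these genes, 0 of 44 subunit genes were past the limit in either direction. Among all genes compared 22.6% were higher and 22.8% lower, and among those with at least 1000 counts 4.84% and 4.47%.

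The ratios of the abundant respiratory genes were close together, but not within counting error of each other. Over the 41 genes with at least 1000 counts, their SD was 0.09 on the log2 scale, against 0.20 for all 2727 genes at that depth. Some related sets were about as narrow, with an SD of 0.11 for 39 genes named Nduf (mostly complex I) at that depth. The SD was 0.09 for 9 skeletal muscle markers and 0.08 for 9 fast fiber genes, lists that share some genes. For 8 slow fiber genes it was wider, at 0.15. The typical half-width of the counting intervals of the 41 respiratory genes was 0.05. For 18 of the 41 genes the interval left out their common median of 0.01, 5 above and 13 below. The respiratory genes were also more deeply counted, with a median of 13911 counts against 2023 for all genes past 1000. Among genes with at least 10000 counts, a limit chosen after seeing the data, the SD was 0.05 for 30 respiratory genes, which ranged from -0.10 to 0.09, and 0.14 for all 236 genes. At that depth 2.54% of all genes were higher by the rule and 0.847% lower, and 0 of the 30 were either. Whether these spreads differ beyond chance was not tested, since genes are not replicates.

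**Figure D4:**
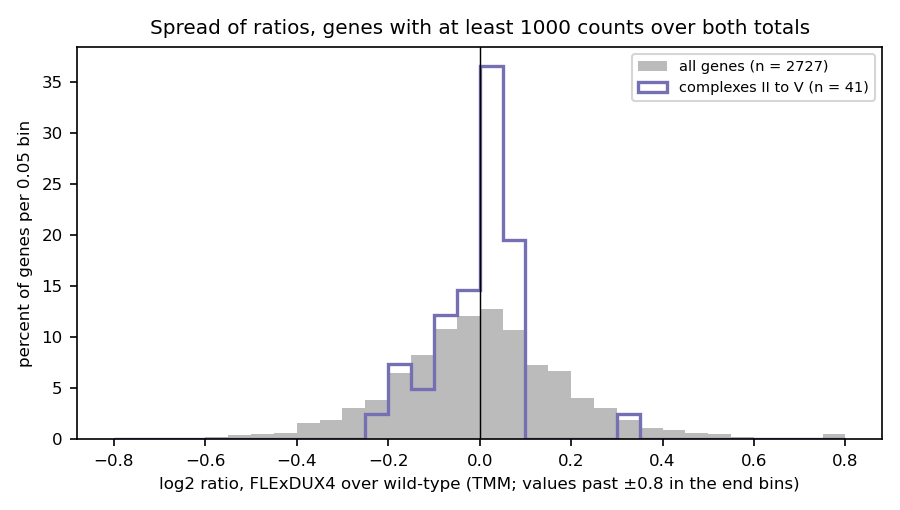
Distribution of log2 ratios, as percent of genes in bins 0.05 wide, for all 2727 genes with at least 1000 counts over both genotypes (grey) and for the 41 genes of complexes II to V among them (purple line); values past 0.8 in size are in the end bins. The respiratory genes crowd around zero, with a tail on the low side to -0.23 and Cox6a1 alone at 0.30.

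Complex I, which takes electrons from NADH, served as the nearest comparison. The 46 genes with names starting in Nduf, which include the complex IV subunit Ndufa4, had a median log2 ratio of -0.03 and ranged from -0.43 to 0.70. By the rule 1 was higher and 3 were lower, against 22.6% and 22.8% of all genes compared. Among the 39 with at least 1000 counts the range was -0.43 to 0.11, with 0 higher and 1 lower, against 4.84% and 4.47%. Their summed ratio was -0.02 (interval -0.04 to -0.01), beside -0.012 for complexes II to V. The difference between these gene sets was not tested. Of the subunits encoded by mitochondrial DNA, mt-Cytb of complex III had 259525 and 364864 counts, a ratio of 0.02 (interval 0.02 to 0.03). The catalytic subunit mt-Co1 of complex IV had 56241 and 71655 counts, a ratio of 0.17 (interval 0.15 to 0.18), while the summed nuclear genes of complex IV were at -0.005. With spike-in scaling mt-Co1 was at -0.11 and the median of the nuclear genes of complex IV at -0.26. For mt-Atp6 11 counts were listed in each genotype, and mt-Co2, mt-Co3 and mt-Atp8 were listed at 0. No ratio of nuclear to mitochondrial transcripts was therefore formed for complex V. For complex IV, mt-Co1 was the only transcript of mitochondrial DNA with counts. Whether reads of mt-Co1 were counted in full is not known here, and its interval does not cover such a loss.

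Assembly factors, which build the complexes but are not part of them, varied far more at their lower counts. Of 35 factors compared, 6 were higher and 8 lower by the rule, near the shares of 22.6% and 22.8% among all genes compared. For complex II, the 4 factors had a median log2 ratio of -0.20, from Sdhaf3 at -0.42 (interval -0.84 to -0.02) and Sdhaf1 at -0.37 (interval -0.62 to -0.12), which help to mature the iron-sulfur subunit Sdhb, to Sdhaf2 at -0.02 and Sdhaf4 at 0.30 (interval 0.14 to 0.45). For complex III, 6 factors had a median of -0.02, with Bcs1l, which inserts the Rieske protein, at -0.41 (interval -0.73 to -0.10) and Uqcc3 at -0.12 at the low end. At its high end stood Ttc19 at 0.03 and Lyrm7, a chaperone of the Rieske protein, at 0.54 (interval 0.16 to 0.93).

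Of 23 factors for complex IV, 22 were compared and had a median log2 ratio of 0.03, with 4 higher and 3 lower by the rule, against 22.6% and 22.8% of all genes compared. Sco1, which delivers copper to the enzyme, had 87 and 64 counts, a ratio of 0.96 (interval 0.48 to 1.45), and Taco1, a translational activator of mt-Co1, had 114 and 103 counts, a ratio of 0.66 (interval 0.27 to 1.06). Surf1 had 132 and 280 counts, a ratio of -0.57 (interval -0.88 to -0.26), and Coa4 had 33 and 71 counts, a ratio of -0.58 (interval -1.23 to 0.03). Pet117 was listed at 0 counts. Of the 3 factors for complex V, 1 was higher and 2 were lower, beside the same shares among all genes. Atpaf1, a chaperone of the beta subunit, was at -0.62 (interval -0.93 to -0.33) and Tmem70, which acts in building the c ring, at -0.38 (interval -0.56 to -0.21), whereas Atpaf2, a chaperone of the alpha subunit, was at 0.89 with a lower bound of 0.54. Atp5b and Atp5a1, the targets of Atpaf1 and Atpaf2, were at 0.004 and -0.04, and the summed c ring genes at -0.09 (interval -0.12 to -0.07).

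**Figure D5:**
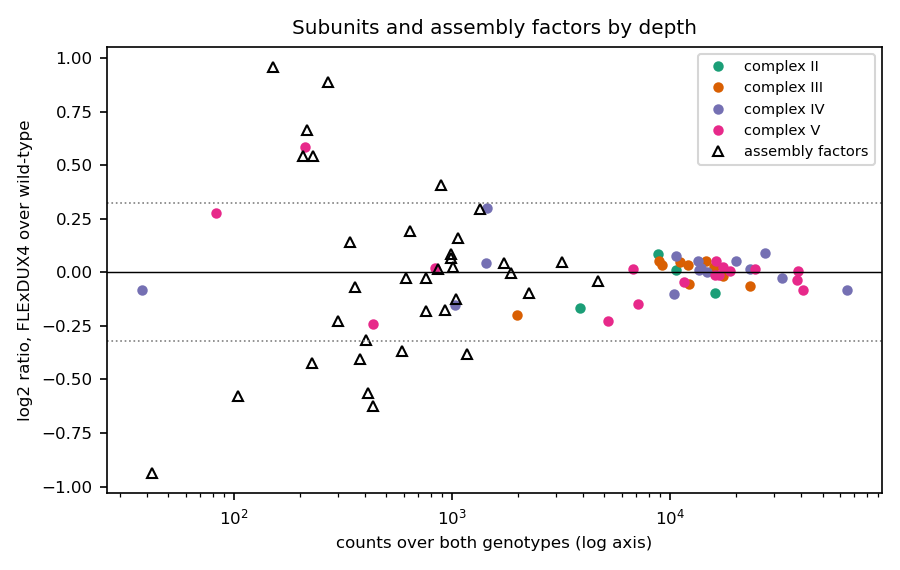
Log2 ratio of FLExDUX4 over wild-type against counts over both genotypes (log axis) for the genes of complexes II to V (colored circles) and their assembly factors (open triangles), with dotted lines at 0.32 and -0.32. Nearly all subunit genes lie to the right of 1000 counts and between the dotted lines, and the assembly factors lie mostly at 100 to 1000 counts and scatter on both sides.

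Other subunits and partners whose names fall outside the rule were close to zero as well, with a median log2 ratio of 0.02 over 7 genes. Of the 7, 0 were past 0.32 in size, and most had at least 1000 counts. Among all genes at that depth 4.84% were higher and 4.47% lower, so 0 of 7 is near those shares. Ndufa4, counted with the Nduf genes above as well, had a ratio of 0.07 (interval 0.01 to 0.12), and Higd2a, a complex IV partner, 0.05 (interval -0.05 to 0.15). Hccs, which attaches heme to cytochrome c, was at -0.12 (interval -0.40 to 0.15). Atpif1, the inhibitor of the ATP synthase, had 341 and 587 counts and the lowest ratio, -0.27 (interval -0.46 to -0.07).

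The content of other cells and of fiber types was read from marker lists. Fast fiber genes had a median log2 ratio of -0.02 over 9 genes and slow fiber genes -0.07 over 8. In either list 0 genes were past the limit. Among all genes with at least 1000 counts, a depth most of these reached, 4.84% were higher and 4.47% lower. In lists this short, 0 is near those shares. White fat markers had a median of 0.30 (3 of 6 higher and 1 lower by the rule, against 22.6% and 22.8% of all genes compared), all 5 erythroid markers lay between 0.25 and 0.45, fibroblast markers had a median of 0.19 over 4 genes and endothelial markers -0.29 over 4. The part of these cells in the ratio of Cox6a1, a form not particular to muscle, was not tested.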

How the data were processed

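Muscle RNA of 3 mice per genotype (FLExDUX4 and wild-type) was sequenced. The submitters' processing notes name cutadapt 1.16, FastQC 0.11.7, STAR 2.5.3a, featureCounts 1.6.2 and DESeq2, with the builds GRCm38 and GRCh38, and how reads on near-identical copies were counted is not given in the sources used here. The authors deposited a table of 52649 features (52550 mouse genes and 99 spike-ins) with raw counts summed over the mice of each genotype. The table also holds 6 columns of values for single mice, whose names match no sample label, and the authors' own comparison (mean, log2 fold change with its error, statistic, p-value and adjusted p-value). None of these columns was used, so no edgeR or DESeq2 test planned over mice was run. Depth, at 13110125 and 18367364 counts on genes, sets the counting error only, and the spread between mice was not measured.

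TMM factors for the genotype totals came from edgeR 4.0.16 under R 4.3.3, using the 13396 genes that passed filterByExpr and no spike-ins. Log2 ratios used a pseudocount of 0.5. Clopper-Pearson intervals (95%) were computed with scipy 1.17.1 in Python 3.11.15. They were also run on simulated totals that held counting error alone, which cannot test them for the spread between mice. The intervals cover counting error only, and reads are not independent molecules. Promoters came from RefSeq on GRCm38.p6, and gene coordinates from GENCODE M21 where its start equals the deposited one (45 of 49 genes).

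The genes and lists were chosen with earlier results of these data known. Named were all isoform pairs, the main catalytic and core subunits, the 3 most abundant genes of each complex, and the 5 highest and 5 lowest ratios among genes with at least 100 counts. From each of the other lists the 2 highest and 2 lowest genes with at least 100 counts were named. Further genes were named after their values were seen. Alternatives were other scalings (RLE, upper quartile, gene total, spike-in total), other filters, a pseudocount of 2 and the set without Atp5s and Atp5sl. Alternatives that kept only genes with at least 1000 or 10000 counts were chosen after seeing the data.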

Additional observations from a re-analysis of the deposited data

How the results depend on the processing

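The median log2 ratio of the respiratory genes was 0.010, and 1 gene was higher by the rule (a log2 ratio of at least 0.32 in size) and 0 lower. Scaling to the spike-in total moved this median to -0.27, the count of higher genes to 0 and that of lower genes to 14 of 46, beside 12.9% higher and 45.0% lower among all genes compared. The medians moved to -0.32 for complex II, -0.25 for complex III, -0.26 for complex IV and -0.27 for complex V. By construction this scaling shifts all genes alike, and the amounts of spike-in added were not analysed here. With no filter 2 genes were higher, since Cox6b2 joined, and without Atp5s and Atp5sl, or with at least 1000 counts, a limit chosen after seeing the data, 0 were. RLE, upper quartile, the gene total, a filter of 10 counts in each total and a pseudocount of 2 left the counts of higher and lower genes as they were. The median of all respiratory genes lies so close to zero that its sign turned with upper quartile (-0.006), the gene total (-0.020) and the filter of 10 counts (-0.005). Under these 3 settings the medians of complexes IV and V were also below zero, from -0.026 to -0.002, and that of complex V was -0.005 with no filter and -0.011 without Atp5s and Atp5sl. These shifts were within counting error, except that the gene total moved Atp5a1 to -0.07, Atp5b to -0.03, Atp5g3 to -0.11 and Cox6a2 to -0.11, beyond theirs. No paired analysis was possible because only sums over mice entered the comparison. This is also why edgeR and DESeq2 tests, a replicate block and leaving out each replicate were not run, and no difference here has been weighed against the spread between mice. Depth limits Atp5l, Atp5g2, Cox4i2 and Cox8a, whose intervals include zero.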

Other observations

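The marker lists gave these values at their ends, among genes with at least 100 counts except for the leukocyte and limb position genes. For skeletal muscle, the log2 ratios were -0.19 for both Des and Myh1, and 0.05 for both Acta1 and Ckm. Among fast fiber genes, Myh1 and Tnnc2 were lowest, at -0.19 and -0.10, and Pvalb and Actn3 highest, at -0.02 and 0.12. Among slow fiber genes, Myl2 and Myl3 were at -0.25 and -0.16, and Tnni1 and Atp2a2 both at 0.07. The white fat markers Fabp4 and Cidec were at 0.11 and 0.20, and Adipoq and Cfd at 0.70 and 0.88. The endothelial markers Tek and Kdr were at -0.63 and -0.56, and Cdh5 and Pecam1 at -0.03 and 0.06. The fibroblast markers Dpt and Pdgfra were at -0.01 and 0.05, and Col1a2 and Col1a1 at 0.33 and 0.53. Of the erythroid markers, Hba-a1 and Hbb-bt were at 0.25 and 0.28, and Hbb-bs and Alas2 at 0.36 and 0.45. Of 5 leukocyte markers 3 were compared, with a median of -0.64 and 2 of them lower by the rule, against 22.8% of all genes compared. Ptprc had 66 and 70 counts, a ratio of 0.43, Adgre1 had 24 and 55 counts, a ratio of -0.66 (interval -1.44 to 0.04), and Cd68 had 23 and 52 counts, a ratio of -0.64 (interval -1.44 to 0.07). The limb position genes had few counts, with Tbx5 (forelimb) at 14 and 34, Tbx4 (hindlimb) at 10 and 10, and Pitx1 (hindlimb) at 0 and 1 in FLExDUX4 and wild-type mice.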
